A study of Mus musculus with 2 samples.

Results

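The Hox, PAX, LIM (Lhx), Dlx, sine oculis, NKX and Iroquois (Irx) genes encode DNA-binding transcription factors that pattern the embryo. They were examined here in undifferentiated mouse embryonic stem cells. The genes were chosen by symbol from the deposited table, without regard to their values. The rule took 88 of 50508 genes: 39 Hox genes, 14 Nkx, 9 Pax, 8 Lhx, 6 Dlx, 6 sine oculis and 6 Irx genes. The cells were of the E14 line, from 129/Ola mice, at passages 15 to 18. Gelatin-coated dishes, 15% serum and leukemia inhibitory factor at 1000 U/ml, which holds such cells undifferentiated, were used for culture. The cells received either scramble siRNA or siRNA to the methyltransferase gene Mettl8, and total RNA for the libraries was isolated at 72 h. The labels give 1 library per group, so no value has a replicate error and no test between the groups was made. The series record speaks of triplicates, and no label says whether a library pools several cultures.

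Values are FPKM, reads scaled by gene length and library size, as deposited by the authors with 2 decimals. Reads per gene were rebuilt from the FPKM and the gene lengths, on denominators of 28462000 and 27819000 reads, of which genes of the table held 22213344 and 21419627. Intervals of levels and ratios are exact 95% intervals on those reads and cover counting error only, since PCR copies of 1 molecule cannot be recognised in these reads. The targeted gene goes against its label: Mettl8 stood at 100.34 FPKM in the library labelled Mettl8 siRNA, against 0.67 FPKM in the other. Directions below follow the labels, and the libraries are called the scramble-labelled and the Mettl8-labelled library. The stem cell identity was plain in both. All 8 of 8 stem cell markers had at least 1 FPKM, with Nanog at 174.53 and 173.24 FPKM and Pou5f1 at 155.31 and 163.54 FPKM. Of 12 fibroblast, 10 mesoderm and 10 endoderm markers, 0 reached a mean of 1 FPKM, and of 12 neural markers 3 did (Tubb3, Ncam1 and Nes).

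As background, vertebrate Hox genes lie in clusters, in the order in which they are used along the head-to-tail axis. They carry paralog numbers that rise from the genes used nearest the head to those used nearest the tail. Homeobox proteins bind DNA through the homeodomain, and PAX proteins through a paired domain, to which some add a homeodomain. In embryonic stem cells, the promoters of these regulators are classic targets of the Polycomb complexes. Many lie in stretches rich in CpG, a cytosine followed by a guanine, that carry both repressive and active histone marks.

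Most of these genes were silent in both libraries. A gene is called silent here at a mean of both libraries under 0.1 FPKM, leaky from 0.1 to under 1 FPKM and expressed from 1 FPKM. By these limits 70 of the 88 genes (79.5%) were silent, 12 leaky and 6 expressed. The expressed genes included Six4, Nkx2-9, Nkx6-3, Nkx6-2 and Pax6. The median level of the 88 genes was 0.025 FPKM in the scramble-labelled and 0.03 FPKM in the Mettl8-labelled library. Of all 21490 protein-coding genes of the table, 35.2% were silent, 18.5% leaky and 46.4% expressed. Of 83 genes of the SOX, FOX, GATA and TBX families, which also encode developmental transcription factors, 42.2% were silent and 27.7% expressed. These shares are set side by side, and their difference was not tested. In bulk RNA, a few cells with much of a transcript and many cells with little of it cannot be told apart, so a leaky level says nothing of how many cells carry the transcript.

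**Figure D1:**
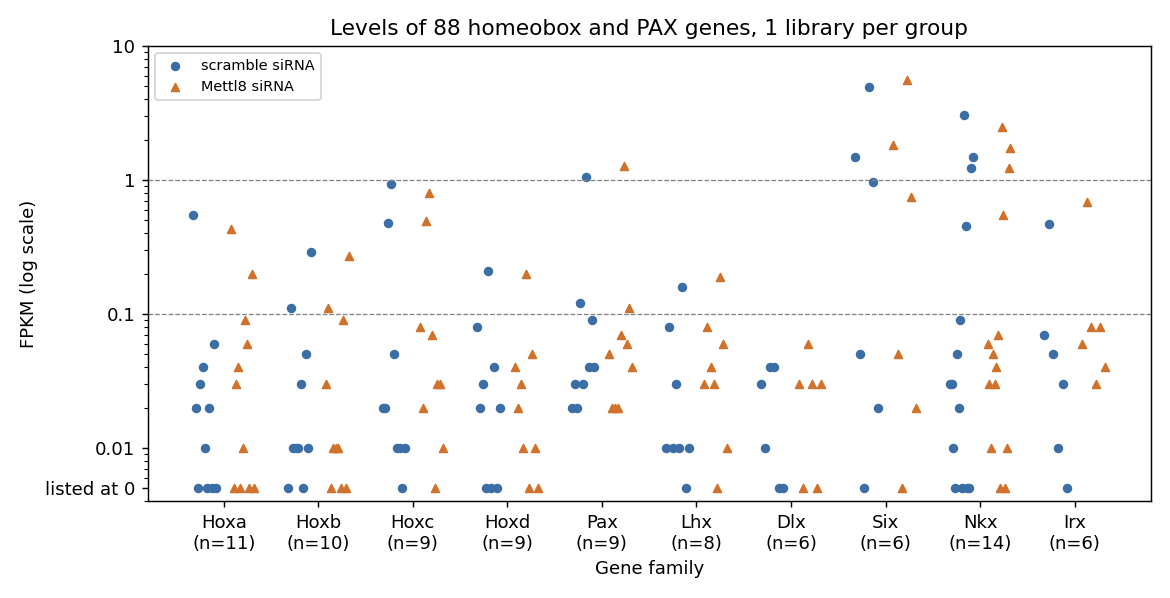
FPKM (log axis, zeros drawn at the bottom) of each of the 88 genes by family, with circles for the scramble-labelled and triangles for the Mettl8-labelled library; dashed lines mark 0.1 and 1 FPKM. Points above 1 FPKM are found in the Pax, sine oculis and Nkx families, and 0 Dlx genes reach a mean of 0.1 FPKM.

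A small number of genes held most of the signal. Six4 alone made up 25.2% and 26.5% of the summed FPKM of the 88 genes in the scramble-labelled and the Mettl8-labelled library. The 6 expressed genes together made up 67.6% and 67.1%. The limits of the classes cut through gaps of unequal width. Just under 1 FPKM lay Hoxc13 (mean 0.87 FPKM), Six5 (0.85) and Irx2 (0.58), and just above it Pax6 (1.165), Nkx6-2 (1.23) and Nkx6-3 (1.605). Just under 0.1 FPKM lay Lhx2 and Nkx2-5 (both 0.08) and Hoxb7 (0.07), and just above it Pax8 (0.10), Hoxb13 (0.11) and Hoxa7 (0.13).

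Promoters are shown so that silent, leaky and expressed genes can be compared in sequence, CpG by CpG. RefSeq promoter windows (GRCm38.p6, 300 bases, from 250 before to 50 after the start, the first window listed for a gene) were at hand for 57 of the 88 genes. For the 6 genes below, the 120 bases just before the start are printed 5′ to 3′ on the gene's own strand, with each CpG in capitals. They were picked after their values were seen, among stretches that overlap no exon of the GENCODE M21 annotation, to span the range of levels and of CpG content. Nkx2-9, Nkx6-2 and Pax6 were expressed, Hoxd13 leaky, and Hoxa13 and Hoxa9 silent.
Nkx2-9 (chr12:56613285-56613404, minus strand): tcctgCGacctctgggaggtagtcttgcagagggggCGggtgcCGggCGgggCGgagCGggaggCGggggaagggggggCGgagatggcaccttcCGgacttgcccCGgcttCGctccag
Nkx6-2 (chr7:139582798-139582917, minus strand): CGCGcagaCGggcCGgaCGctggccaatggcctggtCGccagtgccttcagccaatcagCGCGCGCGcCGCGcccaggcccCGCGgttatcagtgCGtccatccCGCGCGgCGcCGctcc
Pax6 (chr2:105668776-105668895, plus strand): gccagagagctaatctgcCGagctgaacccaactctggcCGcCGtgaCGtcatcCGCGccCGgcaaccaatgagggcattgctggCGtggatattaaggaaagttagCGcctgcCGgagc
Hoxd13 (chr2:74668105-74668224, plus strand): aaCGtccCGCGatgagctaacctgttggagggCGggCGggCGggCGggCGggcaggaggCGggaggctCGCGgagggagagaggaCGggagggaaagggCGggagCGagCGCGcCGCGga
Hoxa13 (chr6:52260881-52261000, minus strand): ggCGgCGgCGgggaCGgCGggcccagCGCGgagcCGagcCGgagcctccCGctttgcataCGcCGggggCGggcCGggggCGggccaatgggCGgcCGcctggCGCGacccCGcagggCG
Hoxa9 (chr6:52227371-52227490, minus strand): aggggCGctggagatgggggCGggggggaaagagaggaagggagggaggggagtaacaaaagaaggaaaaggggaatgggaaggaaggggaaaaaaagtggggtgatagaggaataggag

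The silent Hoxa13, at 0.03 and 0.04 FPKM, had 45 CpG in its 300-base window, the most of the 57. That is more than 97.5% of protein-coding promoters hold. Hoxd13 had 37 CpG and Nkx6-2 had 32. Hoxa9, listed at 0 in both libraries, had 4. The 47 silent genes with a window had a median of 17 CpG (range 4 to 45), the 6 leaky ones 16.5 and the 4 expressed ones 17. Among protein-coding genes of the table the median was 3 for 5587 silent genes, 13 for 2897 leaky genes and 22 for 7782 expressed genes. The median of the silent homeobox and PAX set thus lay between those of leaky and expressed protein-coding genes. Of the 47, 55.3% (exact binomial interval 40.1 to 69.8%) lay above the median of all protein-coding promoters, 14, against 12.6% of silent protein-coding genes. That interval treats the genes as independent draws. They are a fixed set with paralogs in shared clusters, so it measures no sampling spread and is no test. The 6 leaky windows ran from 7 to 37 CpG and the 4 expressed ones from 15 to 32, so the classes overlapped, and the 22 Hox windows alone ran from 4 to 45. The differences were not tested.

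**Figure D2:**
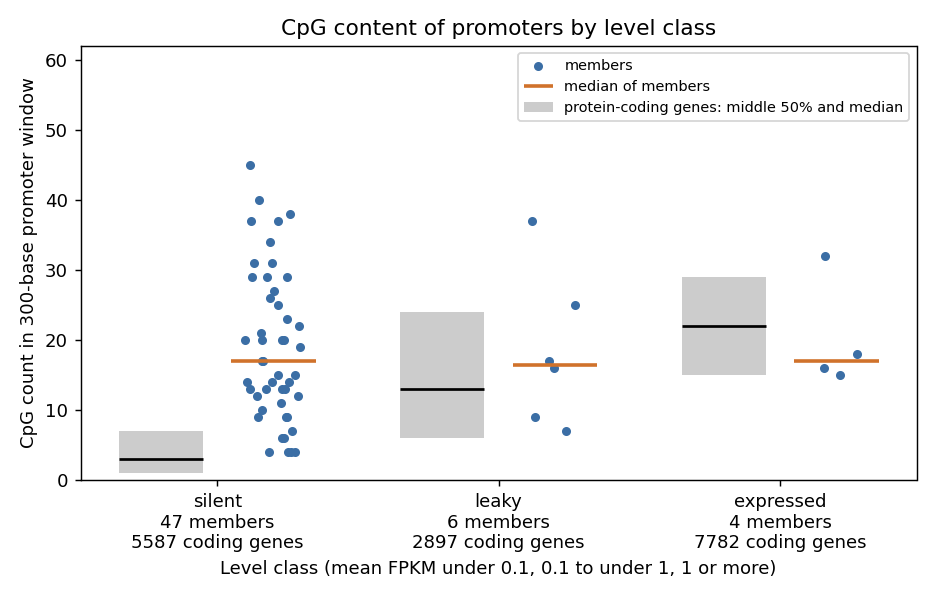
CpG count in the 300-base promoter window (vertical axis) by level class, with points for the homeobox and PAX genes, an orange line for their median, and grey boxes for the middle 50% of protein-coding genes with their median in black. The silent genes (median 17) sit above the box of silent protein-coding genes (median 3), while the medians of the leaky (16.5) and expressed (17) genes are close to that of the silent ones.

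Short promoter motifs were searched on both strands of the same windows. The TATA-box letters TATAAA were found in 4 of 57 windows (7.02%), against 12.9% of protein-coding promoters. CCAAT was found in 29 (50.9%), against 38.7%. GGGCGG, the letters of the GC box, was found in 33 (57.9%), against 48.0%. Among silent genes alone, GGGCGG was found in 53.2% of the 47 windows of these families and in 17.5% of the 5587 of protein-coding genes. GGGCGG holds a CpG, so its share moves with CpG content. A match is a run of letters and no measured binding.

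Sine oculis genes had the highest levels. Their proteins are homeobox factors that act with EYA partners in muscle, kidney and sensory organs. Six4 (ENSMUSG00000034460.9) was 4.95 FPKM (4.70 to 5.20) in the scramble-labelled and 5.56 FPKM (5.30 to 5.83) in the Mettl8-labelled library, on 1529 and 1679 reads, each within 1 read. It lies on chromosome 12 at 73099609 to 73113456 in mm10, minus strand. Six6, an eye and pituitary regulator, was silent at 0.02 FPKM in both libraries. Six5, which lies 0.773 kb from the kinase gene Dmpk, was leaky at 0.96 FPKM (0.762 to 1.19) and 0.74 FPKM (0.568 to 0.950). Six2, a kidney progenitor factor, was 0.05 FPKM in both. Six3, a forebrain factor, was listed at 0 in both.

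NKX genes formed the other expressed group, with 3 expressed, 1 leaky and 10 silent genes. Nkx2-9 (ENSMUSG00000058669.7), a gene of the ventral neural tube, was 3.06 FPKM (2.51 to 3.69) and 2.50 FPKM (2.01 to 3.08), on 110 and 88 reads. It lies on chromosome 12 at 56611389 to 56613284, minus strand, between 2 silent neighbours. Nkx2-1, the thyroid and lung factor 74.5 kb away, was 0.01 FPKM in both libraries, and Pax9, a tooth and pharyngeal pouch factor 78.5 kb away, was 0.04 FPKM in both. A short unclassified transcript, Gm38103, lies 0.913 kb from Nkx2-9 on the same strand and had 1.95 and 1.41 FPKM. Whether it and Nkx2-9 are parts of 1 transcript was not tested.

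Nkx6-3 and Nkx6-2 followed at lower levels. Nkx6-3 (ENSMUSG00000063672.7, chromosome 8, 23153269 to 23158948, plus strand), a gene of the stomach lining, was 1.49 FPKM (1.21 to 1.82) and 1.72 FPKM (1.41 to 2.08). Nkx6-2 (ENSMUSG00000041309.17, chromosome 7, 139579376 to 139582797, minus strand), a gene of the neural tube and of oligodendrocytes, was 1.23 FPKM in both (0.957 to 1.57 and 0.946 to 1.56). Exons of Nkx6-2 overlap exons of Inpp5a on the opposite strand, at 1.85 FPKM in both libraries. Whether counting used strand is not stated in the sources at hand, so reads of these 2 genes cannot be told apart and the level of Nkx6-2 is uncertain. The third member of that subfamily, Nkx6-1, a pancreas and motor neuron factor, was silent at 0.00 and 0.01 FPKM. Nkx2-6 was listed at 0 in both, and the heart factor Nkx2-5 was silent at 0.09 and 0.07 FPKM.

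PAX, LIM, Iroquois and Dlx genes were mostly silent. Pax6 (ENSMUSG00000027168.21, chromosome 2, 105668900 to 105697364, plus strand), a regulator of the eye and forebrain, was 1.06 FPKM (0.953 to 1.18) and 1.27 FPKM (1.15 to 1.40), on 353 and 413 reads. It was the expressed gene nearest to the limit of 1 FPKM, and the lower bound in the scramble-labelled library lay under it. Pax8, a thyroid and kidney factor, was at the lower limit of the leaky class with 0.09 and 0.11 FPKM. The other 7 Pax genes were silent, and Pax4, a pancreatic islet factor, was the most uneven of them with 0.12 FPKM on 5 reads and 0.02 FPKM on 1 read.

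Among the 8 Lhx genes, Lhx6, a factor of cortical interneurons, was leaky at 0.16 FPKM (0.101 to 0.244) and 0.19 FPKM (0.121 to 0.276). The other 7 were silent, with Lhx2, an eye and forebrain factor, nearest to the limit at 0.08 FPKM in both. Irx2 was the leaky one of 6 Irx genes, at 0.47 FPKM (0.342 to 0.632) and 0.69 FPKM (0.530 to 0.883). Its chromosome 13 neighbours Irx1 and Irx4, 665 and 626 kb away, were silent at means of 0.065 and 0.02 FPKM. All 6 Dlx genes, regulators of the branchial arches and the forebrain, were silent, with the highest, Dlx3, at 0.04 and 0.06 FPKM. Dlx1as, antisense to Dlx1, had 0.50 and 0.51 FPKM while Dlx1 had 0.03 FPKM in both. Their exons overlap, so their reads too cannot be told apart without a known strand. In all, 34 of the 88 genes share exonic bases with another gene.

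**Figure D3:**
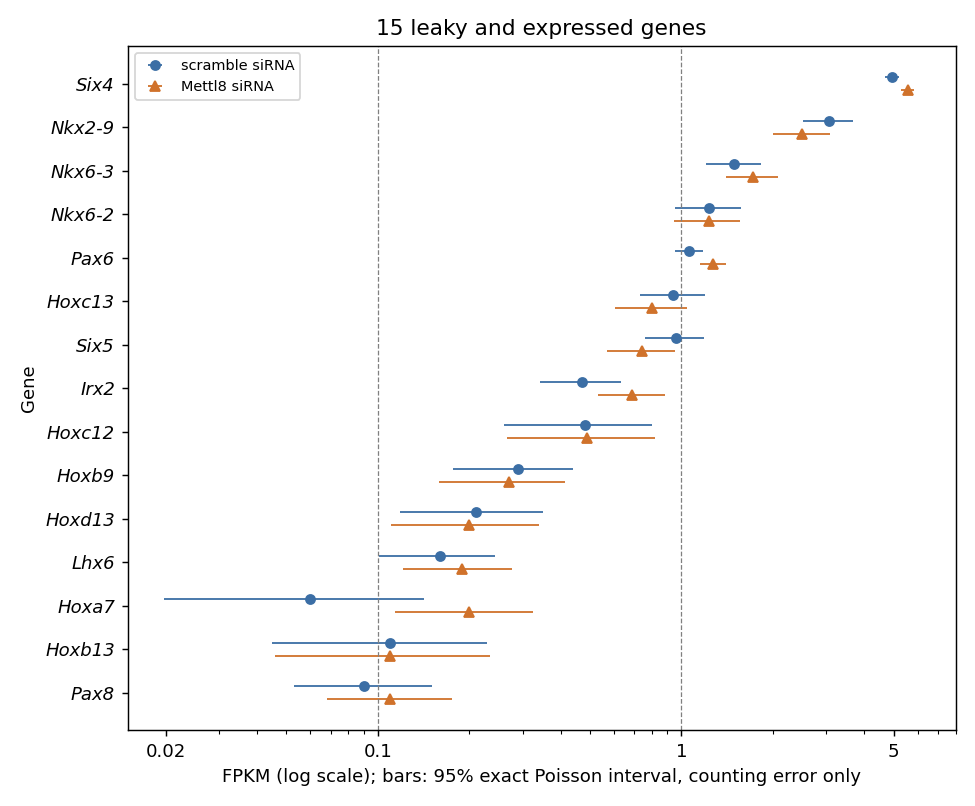
FPKM (log axis) of 15 leaky and expressed genes in the scramble-labelled (circles) and the Mettl8-labelled library (triangles), with exact 95% Poisson intervals of the reads; dashed lines mark 0.1 and 1 FPKM. Six4 stands highest at 4.95 and 5.56 FPKM, and the intervals of the 2 libraries overlap for each gene shown except Six4.

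None of the 39 Hox genes was expressed: 32 were silent and 7 leaky. The leaky genes included Hoxa7, Hoxb9, Hoxb13, Hoxc12, Hoxc13 and Hoxd13. Hoxc13, a hair and nail factor, was highest at 0.94 FPKM (0.729 to 1.20) and 0.80 FPKM (0.605 to 1.05), on 66 and 55 reads. Next to it Hoxc12 was 0.48 FPKM (0.261 to 0.800) and 0.49 FPKM (0.267 to 0.819), on 14 reads in each library. Hoxc11, the following gene of the cluster, was 0.02 FPKM in both, so the leaky levels of this cluster stopped after its first 2 genes at the tail-type end. Hoxd13, a digit factor, was 0.21 FPKM (0.119 to 0.350) and 0.20 FPKM (0.111 to 0.340), and Hoxb13, a tail and prostate gene, 0.11 FPKM in both. Of the 4 genes of paralog group 13, Hoxa13 was the silent one.

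The paralog group 1 genes Hoxb1 and Hoxd1 were silent, at 0.00 and 0.03 FPKM and at 0.08 and 0.04 FPKM. Hoxb9 was 0.29 FPKM (0.177 to 0.438) and 0.27 FPKM (0.160 to 0.414). By paralog number, 1 of 12 genes of groups 1 to 4, 1 of 11 of groups 5 to 8 and 5 of 16 of groups 9 to 13 were leaky. The genes of groups 9 to 13 held 136 of the 202 Hox reads of the scramble-labelled library and 126 of 203 in the Mettl8-labelled one. Hoxc13 alone held 66 of these 136 and 55 of these 126 reads.

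**Figure D4:**
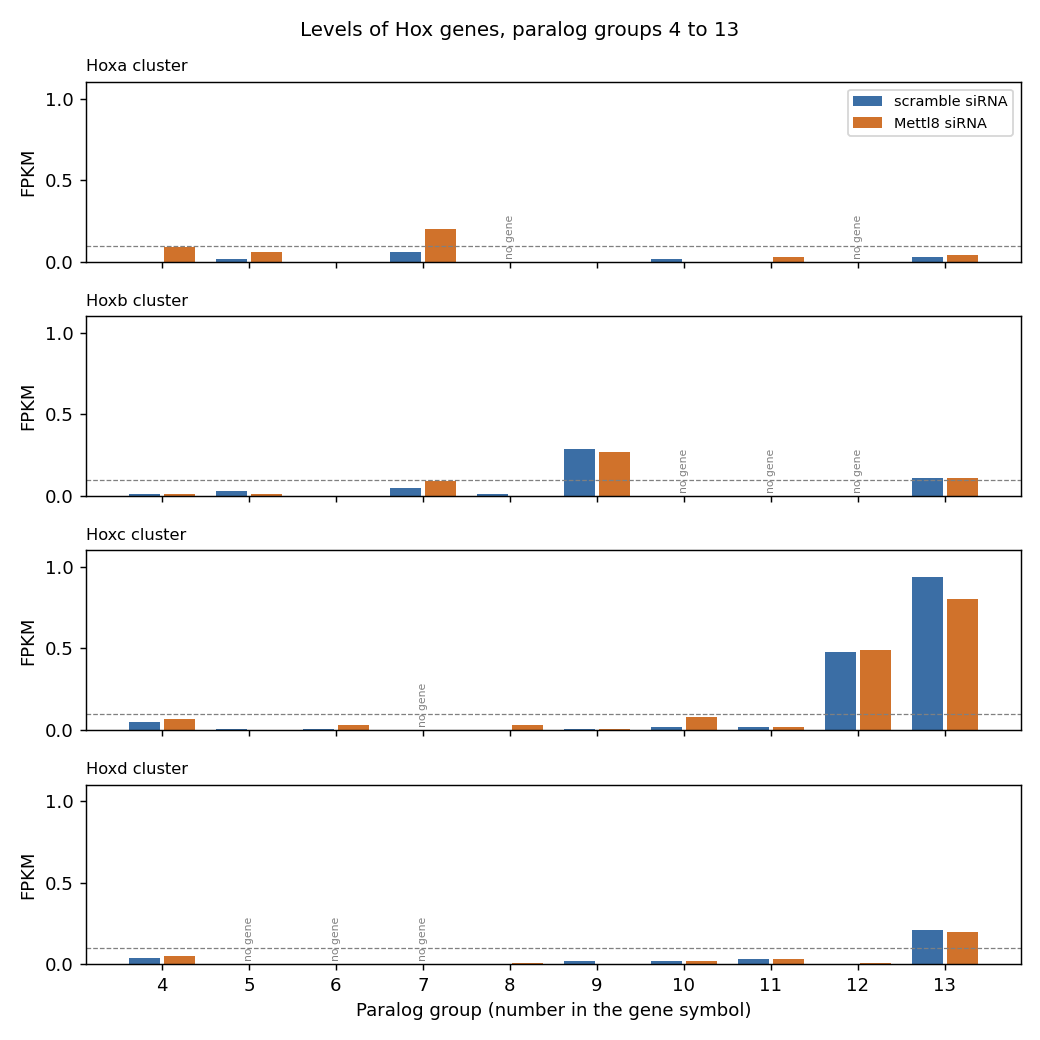
FPKM of the Hox genes of paralog groups 4 to 13 by cluster (panels) and paralog group (horizontal axis), with blue bars for the scramble-labelled and orange bars for the Mettl8-labelled library; the dashed line marks 0.1 FPKM. All bars shown stay under 1 FPKM, and the tallest stand at Hoxc13 and Hoxc12.

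Most genes on the flanks of the clusters were expressed. Of the 3 nearest protein-coding genes outside the Hox genes on each side of the 4 clusters, 24 in all, 21 were expressed. Of all protein-coding genes 46.4% were, and the difference was not tested. The 24 genes lay up to 910 kb from a cluster. Each of the exceptions was the nearest gene on its side. They were Evx1 (mean 0.115 FPKM) and Evx2 (0.01 FPKM), homeobox genes next to the Hoxa and Hoxd clusters, and Skap1 (0.08 FPKM), an adaptor gene of lymphocytes. The Hoxc cluster (chromosome 15, 102921103 to 103036852) lay between Calcoco1 at 6.45 and 6.42 FPKM and Smug1, a DNA repair gene, at 3.28 and 3.69 FPKM. Mtx2, 60.7 kb from the Hoxd cluster (chromosome 2, 74668310 to 74765142), was 4.89 and 5.54 FPKM. Skap2, 143 kb from the Hoxa cluster (chromosome 6, 52155590 to 52260880), was 2.02 and 2.17 FPKM. Ttll6, 28.9 kb from the Hoxb cluster (chromosome 11, 96194316 to 96368256), was 1.48 and 1.16 FPKM. On the other sides, the nearest gene at 1 FPKM or more was Hibadh, 285 kb from the Hoxa cluster, Snx11, 399 kb from the Hoxb cluster, and Lnpk, 88.9 kb from the Hoxd cluster.

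Some noncoding transcripts at these loci were above the Hox genes. Halr1, a noncoding RNA gene beside the Hoxa cluster, was 9.35 and 10.63 FPKM, on 261 and 290 reads. Gm53, a noncoding transcript inside the Hoxb cluster, was 2.24 and 1.82 FPKM. Mir196a-1, a microRNA gene of the same cluster 6.19 kb from Hoxb9, was 8.61 and 5.29 FPKM, on 25 and 15 reads over a short hairpin gene. Hotair, of the Hoxc cluster, and Hottip, beyond the Hoxa cluster, were silent at 0.05 and 0.07 FPKM and at 0.05 and 0.02 FPKM. The other microRNA genes of the clusters had at most 1 read per library, with Mir10b, Mir196a-2, Mir196b and Mir615 listed at 0 in both. These libraries read the gene or its precursor and hold no measure of the mature microRNA.

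Some mature forms of these microRNAs, from RefSeq on GRCm38.p6, are shown because 2 genes at unlike levels, Mir196a-1 and Mir196a-2, share 1 product. They are printed 5′ to 3′ with the seed, bases 2 to 8, in capitals. The forms printed fall into 2 seed families. The other mature form of each of these genes and the forms of Mir615 have other seeds and are not printed.
miR-196a-5p (made from Mir196a-1 and Mir196a-2): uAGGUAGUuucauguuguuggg
miR-196b-5p: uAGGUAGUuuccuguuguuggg
miR-10a-5p: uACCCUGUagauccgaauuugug
miR-10b-5p: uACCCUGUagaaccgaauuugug

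The silent genes were not without reads. Of the 70, 43 had reads in both libraries, 8 were listed at 0 in both, and the median was 4 reads over both libraries. The genes listed at 0 in both were Hoxa6, Hoxa9, Hoxb6, Hoxd3, Dlx5, Nkx2-6, Nkx3-2 and Six3. A count of 0 allows 3 reads, which is 0.0189 FPKM for Hoxa9 (5580 bases) and 0.121 FPKM for Hoxa6 (874 bases) in the scramble-labelled library. For short genes such as Hoxa6 the depth therefore cannot tell silent from leaky. For 35 of the 70 the upper Poisson bound was under 0.1 FPKM in both libraries, and the highest upper bound, of Pax4, was 0.284 FPKM.

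Between the libraries, 0 of the 88 genes were 2-fold apart on log2(FPKM + 1), where 0.325% of all 50508 genes were. Of the 21490 protein-coding genes only 3 were, so a count of 0 does not set the 88 apart. At 1.5-fold the count was also 0, against 1.39% of all genes. This scale understates the change of low genes, and with a pseudocount of 0.1 the count at 2-fold was again 0, against 6.41% of all genes. The shares at 1.5-fold and with a pseudocount of 0.1 were not computed for protein-coding genes alone. The FPKM was higher in the Mettl8-labelled library for 39 genes, lower for 22 and equal for 27. These are 44.3% and 25.0% of the 88, against 39.5% and 28.3% of all genes. The median log2 difference of the 88 genes was 0.00, as it was over all genes. Both medians fell among genes with equal values, 27 of the 88 and 16255 of all, so they say little about a shift.

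Ratios were read for the 14 genes with at least 30 reads over both libraries, of which 8 were higher and 6 lower in the Mettl8-labelled library. The counting interval of the ratio excluded 1 for 3 of the 14, all higher. The same held in either direction for 17.0% of all genes with at least 30 reads, for 19.0% of protein-coding genes among them and for 14.0% of protein-coding genes with 30 reads up to the number of Six4. The share of 3 in 14 is near these backgrounds, and the spread between cultures is unknown. The ratio was 1.12 (1.05 to 1.20) for Six4 and 1.20 (1.04 to 1.38) for Pax6. Nkx6-2 was closest to equal at 0.993 (0.695 to 1.42). The widest departures were 1.46 (0.981 to 2.20) for Irx2 and 0.774 (0.547 to 1.09) for Six5, and the interval held 1 for both.

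**Figure D5:**
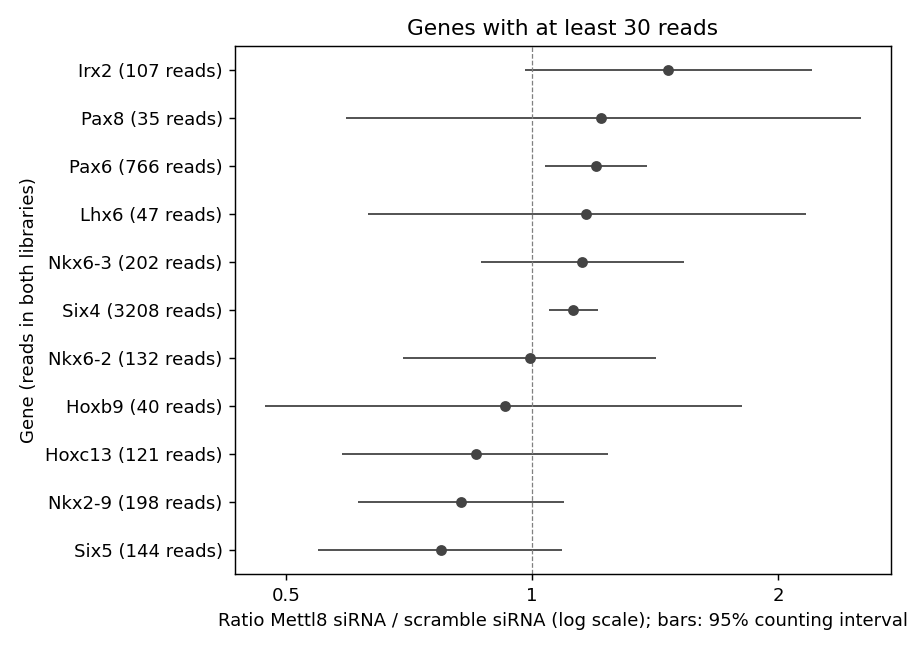
Ratio of the Mettl8-labelled to the scramble-labelled library (log axis) with 95% counting intervals for 11 genes with at least 30 reads, whose number is given beside each name. Intervals of Six4 and Pax6 lie above 1 and the others shown hold it.

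Among the 74 genes with fewer reads, the interval excluded 1 for Hoxa7 alone, which had 5 and 16 reads (0.06 and 0.20 FPKM, ratio 3.27, 1.15 to 11.4). The share of all genes with so few reads that pass this rule was not computed, so the count has no background. Hoxaas3, whose exons overlap those of Hoxa7 on the opposite strand, had 0.02 and 0.11 FPKM. Both thus had more reads in the Mettl8-labelled library, and their reads cannot be told apart. The cluster did not move in 1 direction: of its 11 genes 5 were higher (Hoxa4, Hoxa5, Hoxa7, Hoxa11 and Hoxa13), 3 lower, Hoxa2 and Hoxa10 among them, and 3 equal. For the whole cluster 49 and 57 reads gave a ratio of 1.19 (0.798 to 1.78).

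The 6 Irx genes had 57 and 86 reads in all, a ratio of 1.54 (1.09 to 2.20), with 5 of 6 higher, and Irx2 held 44 and 63 of these reads. The interval also excluded 1 for the summed reads of the Pax genes (1.20, 1.05 to 1.37) and the sine oculis genes (1.12, 1.05 to 1.19). For the Lhx, Dlx and Nkx genes it held 1. These sums largely restate single genes. Pax6 held 353 of the 407 and 413 of the 478 Pax reads. Six4, with 1529 and 1679 reads, held most reads of its family and of all 88 genes, while Six5 was lower. All 88 genes together gave 1.12 (1.07 to 1.18) and the 6 expressed genes 1.13 (1.06 to 1.19). By the same sums, all protein-coding genes gave 1.011 (1.010 to 1.011). The 83 SOX, FOX, GATA and TBX genes gave 0.973 (0.954 to 0.992), an interval that also excluded 1, on the other side. No background was computed for sums over sets as small as the single families. Over the 70 silent genes the reads summed to 142 and 185, a ratio of 1.33 (1.07 to 1.67). The 7486 other silent protein-coding genes had 15610 and 20085 reads and a ratio of 1.32 (1.29 to 1.34), so the silent genes of these families were close to silent genes at large. The 12 leaky genes summed to 368 and 370 reads, a ratio of 1.03 (0.888 to 1.19). The 39 Hox genes summed to 202 and 203 reads, a ratio of 1.03 (0.842 to 1.26). The 4 clusters lay between 0.966 for Hoxc and 1.19 for Hoxa, and each interval held 1.

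Cofactors of these proteins were expressed about as often as protein-coding genes at large, of which 46.4% were. Of 11 TALE homeobox genes, whose proteins bind DNA together with HOX proteins or compete with them, 5 were expressed, 5 leaky and 1 silent. They were led by Tgif1 (12.14 and 11.53 FPKM), Tgif2 (9.67 and 9.90), Pbx2 (8.50 and 8.21) and Pknox1 (2.57 and 2.87). Pbx4 was 1.28 FPKM and 0.78 FPKM, a ratio of 0.606 (0.415 to 0.877). Meis1, a main HOX partner in blood and limb, was the silent one at 0.06 and 0.09 FPKM. Of 21 partners of LIM, sine oculis and PAX proteins, 10 were expressed. They include Ldb1, the adaptor of LIM homeobox proteins, at 33.96 and 33.55 FPKM, the corepressor gene Tle4 at 23.57 and 23.89 FPKM and the sine oculis partner Eya3 at 4.90 and 4.86 FPKM. Eya1 was leaky at 0.33 FPKM in both, and Eya2 and Eya4 were silent.

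Chromatin regulators of these loci were abundant. All 18 genes listed for the Polycomb complexes, which repress Hox genes, were expressed, with a median of 14.2 and 15.3 FPKM. They were led by Mtf2 (54.69 and 55.35 FPKM), Rbbp7 (54.92 and 54.06), Jarid2 (45.59 and 45.33) and Suz12 (41.46 and 41.38). Of 10 genes of the opposing trithorax group, 9 were expressed, led by Dpy30 (52.59 and 57.98 FPKM) and Wdr5 (32.57 and 34.59). In either list 0 genes were 2-fold apart on log2(FPKM + 1). Only 3 of the 21490 protein-coding genes were, so this count says little about the lists. Smaller differences were seen in both directions, such as Ezh2 (ratio 1.19, 1.13 to 1.26) and Kmt2b (0.881, 0.836 to 0.929). An interval that excludes 1 was found for 19.0% of protein-coding genes with at least 30 reads.

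Signals that induce Hox genes were low. Of 10 listed inducers, 0 were expressed, 5 were leaky and 5 silent. Cdx1, a homeobox activator of Hox genes, was 0.22 and 0.41 FPKM (11 and 20 reads, ratio 1.86, 0.850 to 4.30), while Cdx2 and Cdx4 were silent. Fgf8, also silent, had 6 and 0 reads (ratio 0, 0 to 0.869). Of the 10 inducers, 5 were higher and 3 lower in the Mettl8-labelled library. In the retinoic acid pathway 6 of 18 genes were expressed. Of these, 4 encode receptors: Rarg at 22.25 and 24.99 FPKM, Rxrb at 9.85 and 9.53, Rara at 3.36 and 3.24 and Rxra at 1.67 and 1.80. Crabp1, a retinoic acid binding protein gene, was 3.55 and 4.03 FPKM. Rarb, a target of the pathway, was leaky at 0.12 and 0.20 FPKM. Aldh1a2, the retinoic acid synthesis gene of the early embryo, was leaky at 0.47 and 0.51 FPKM, and Aldh1a1 and Aldh1a3 were silent.

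Of 70 other homeobox genes, 34 (48.6%) were silent, 24 leaky and 12 (17.1%) expressed. Beside Nanog and Pou5f1 these were led by Rhox5 (20.41 and 24.17 FPKM), Adnp2 (12.14 and 11.17), Adnp (9.69 and 9.98) and Gbx2 (9.05 and 10.47). Six4 would rank between Gbx2 and Otx2 (4.66 and 3.86 FPKM) on this scale. Of the marker lists of other cell types, the mesoderm list summed to 2.65 and 2.73 FPKM, the endoderm list to 1.61 and 2.13 FPKM and the fibroblast list to 2.06 and 1.79 FPKM. Of the neural list, whose summed level was 21.6 and 22.0 FPKM, Tubb3 held 17.92 and 17.94 FPKM, Ncam1 1.61 and 1.85 FPKM and Nes 1.06 and 1.21 FPKM. Tubb3 and Ncam1 thus lay above Pax6, and Nes lay within the interval of Pax6 in both libraries. The defining neural genes Sox1 (0.17 and 0.19 FPKM), Neurog1 and Neurog2 (both 0.00 and 0.02) and Olig2 (0.00 and 0.01) had lower levels than Pax6 and Nkx6-2. Of the 12 neural markers 10 were higher in the Mettl8-labelled library, as was Pax6, against 48.0% of protein-coding genes. Among these 10, Neurog1, Neurog2 and Olig2 had 0 and 1 reads, and Tubb3 and Map2 were nearly equal (ratios 1.00 and 1.03, both intervals holding 1). The 1 lower neural marker was Hes5, with 6 and 0 reads (ratio 0, 0 to 0.869). The count of 10 thus says little of the size or direction of any difference. In the other lists, 8 of 10 endoderm, 4 of 10 mesoderm and 4 of 12 fibroblast markers were higher, and 1 of 8 stem cell markers. The part of the neural markers in the ratio of Pax6 was not tested.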

How the data were processed

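RNA sequencing was carried out on 2 libraries, 1 per group. Per the submitters' processing notes, the authors used STAR 2.4.0i and featureCounts 1.5.0-p1 with the mm10 build; which annotation they used, whether strand was counted, and what became of reads with several positions is not stated there. The authors deposited FPKM values with 2 decimals and a gene length in bases. Genes were grouped by symbol; GENCODE M21 (GRCm38, the assembly of mm10) gave positions, and its exon union equalled the deposited length for 86 of the 88 genes.

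FPKM times length fell on whole multiples of 1 step (100% of 3120 and 3560 values under 400 bases and 30 reads, within rounding plus 0.005 reads), which gave the denominators; 72 genes had 1 possible read count in each library. Intervals are exact Poisson (levels), exact Clopper-Pearson (ratios) and exact binomial (shares) at 95%. A zero allows 3 reads. No test between groups was possible. Differences are log2(FPKM + 1), Mettl8-labelled minus scramble-labelled. The alternatives were other class limits, a pseudocount of 0.1, filters on low values, 2 scalings and the upstream part of promoters. Genes were named when expressed, among the 3 highest of a family, next to a class limit, with a ratio interval excluding 1, or among the 6 highest of a context list; others named for contrast were chosen after their values were seen. The named genes, the context and marker lists and the thresholds, the class limits among them, were chosen with earlier results of these data known. Some genes named by this rule are not reported here. The steps were tested on simulated data. Python 3.11.15, numpy 2.4.6, pandas 2.3.3, scipy 1.17.1 and matplotlib 3.10.9 were used.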

Additional observations from a re-analysis of the deposited data

How the results depend on the processing

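The count of 70 silent genes stayed between 56 and 74 under the other FPKM limits, in either library alone and after rescaling; with silent defined as at most 3 reads in each library it was 44, and the leaky count rose from 12 to 38, since longer genes pass 3 reads at a lower FPKM. With silent set below 0.05 FPKM the leaky count was 26. The 6 expressed genes became 10 from a mean of 0.5 FPKM and 2 from 2 FPKM. The classes from each library alone were added after seeing the data. The number of genes 2-fold apart stayed at 0 under each setting run, including 1.5-fold. The median log2 difference moved from 0.00 to 0.13 over the 6 genes with a mean of at least 1 FPKM and to 0.018 over the 18 with at least 0.1 FPKM, where all genes passing these filters had 0.013 and 0.011. With both libraries rescaled to the same FPKM sum (a shift of 0.094 on the log2 scale), 13 of 14 ratios kept their side of the interval rule and that of Irx2 became 1.56, past it; with the median ratio set to 0, 13 kept it. The share of silent genes above the median CpG count was 61.7% with the bases before the start alone. No paired analysis was possible because each group has 1 library. Depth limits the silent class: an upper bound of 0.1 FPKM or more in a single library remained for 35 of its 70 genes.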
